A study of Mus musculus with 15 samples.

Results

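A group of 3 genes with roles in adhesion and in contact with the bone marrow niche, Robo4, Bcam and Itgal, carried a somatic call in haematopoietic stem cells (HSCs) of old mice. They were chosen by their gene annotation in the authors' list of all calls, with the results of that list known, and make up 3 of the 30 genes with values. Together they hold 3 calls of 31 with values, in 5 of the 44 entries, where an entry is a call in 1 library. Because the genes were taken from a list of calls, the presence of a call in them is not a result.

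Whole-exome sequencing was run on 15 libraries from 5 old mice. All animals had the genotype Gfp-lc3/Gfp-Lc3, in which green fluorescent protein is fused to the autophagosome protein LC3, and cells were taken at steady state. HSCs purified from bone marrow were sorted by this signal into AThi (GFPlo, autophagy-engaging) and ATlo (GFPhi) cells, with 5 libraries of each from about 10000 cells, and tail DNA of each mouse gave the 5 germline libraries. The submitters' design text speaks of 6 pairs, whereas the samples given are of 5 mice, all of them analysed here. DNA carries no expression values, so the identity of the sorted cells was not checked by markers. Depth at the called sites ran from 13 to 371 reads in HSC DNA (median 72, planned coverage 150) and from 10 to 280 in tail DNA (median 54, planned 30).

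HSCs stay in the bone marrow through receptors that bind matrix, vessel walls and stromal cells. Robo4 is a roundabout receptor of endothelial cells and HSCs, and in mice it has been linked to the lodging of HSCs in the marrow. Bcam, the Lutheran glycoprotein, is a receptor of the immunoglobulin superfamily that binds laminin. Itgal encodes the alpha chain of the leukocyte integrin LFA-1, which pairs with the chain encoded by Itgb2 and binds intercellular adhesion molecules. A somatic mutation that is heterozygous in every cell of a sample stands at an allele fraction of 0.5 on an autosome, and a lower fraction corresponds to a smaller clone.

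In the authors' deposited table, Robo4 and Bcam were called in both fractions of mouse 1, and Itgal in ATlo cells of mouse 4 alone. The 3 genes thus had entries in 3 of 10 HSC libraries and in 2 of 5 mice, with no call in mice 2, 3 and 5. All 3 are autosomal, so their allele fractions share a scale.

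Robo4 was the member with a change in the protein. The call was a G-to-A substitution on chromosome 9, at position 37408184 in the coordinates of the call list. No source used here names the build of that list. It lay in exon 12 and read D577N in both listed transcripts. The change is at coding base 1729, which is the first base of codon 577, and replaces aspartate, which is acidic, by asparagine, which is not. In RefSeq's annotation of GRCm38.p6 the gene spans 37401902 to 37414023 on the plus strand, so the position falls 6282 bases from its start; 30 of 30 genes with values held their site within the span of the same name on that build.

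In AThi cells of mouse 1 the Robo4 allele fraction was 0.174 at 102 reads (95% Wilson interval 0.113 to 0.259). In ATlo cells it was 0.167 at 85 reads (0.103 to 0.260). The 2 libraries therefore stood side by side, with about 18 and 14 alternate reads as estimated from depth times fraction. Read as a heterozygous site, these values correspond to 34.8% of AThi cells (22.5 to 51.8%) and 33.4% of ATlo cells (20.5 to 52.1%). Intervals cover counting error only, as several reads can stem from 1 molecule where molecular identifiers are lacking.

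Bcam was called in an intron, as a C-to-T substitution at position 19768438 of chromosome 7. The gene lies on the minus strand of GRCm38.p6, from 19756138 to 19770532, and the site is 2094 bases from its start. Its allele fraction was 0.424 at 43 reads in AThi cells of mouse 1 (interval 0.289 to 0.572) and 0.34 at 50 reads in ATlo cells (0.224 to 0.478). Bcam thus stood above Robo4 in both fractions, at a lower depth. The shares of heterozygous cells that correspond to it are 84.8% in AThi (57.7 to 100%) and 68% in ATlo (44.9 to 95.7%).

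The Bcam site also carried a name in the column of known mouse variants (snp142). The ATlo entry had rs231539792, the AThi entry of the same site had none, and it was the only named entry of 44. The column gives known variants of the mouse genome, many of which differ between strains. Whether the call is such a variant was not tested. In tail DNA of mouse 1 the site had a fraction of 0.011 at 51 reads.

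Itgal was called as the loss of a single G in an intron, at position 127297569 of chromosome 7. The gene spans 127296139 to 127335137 on GRCm38.p6, which puts the site 1430 bases inside its lower end. The allele fraction in ATlo cells of mouse 4 was 0.42 at 27 reads (interval 0.255 to 0.604), or about 11 alternate reads. This corresponds to 84% of cells (51.1 to 100%). The list holds no entry for AThi cells of that mouse, and neither depth nor fraction at the site is given there, so absence of the deletion from AThi cells was not measured. The 6 AThi entries of mouse 4, all at other sites, had depths of 20 to 103 reads. Which genomic bases flank the deletion was not analysed here, including whether it lies in a run of the same base.

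**Figure D1:**
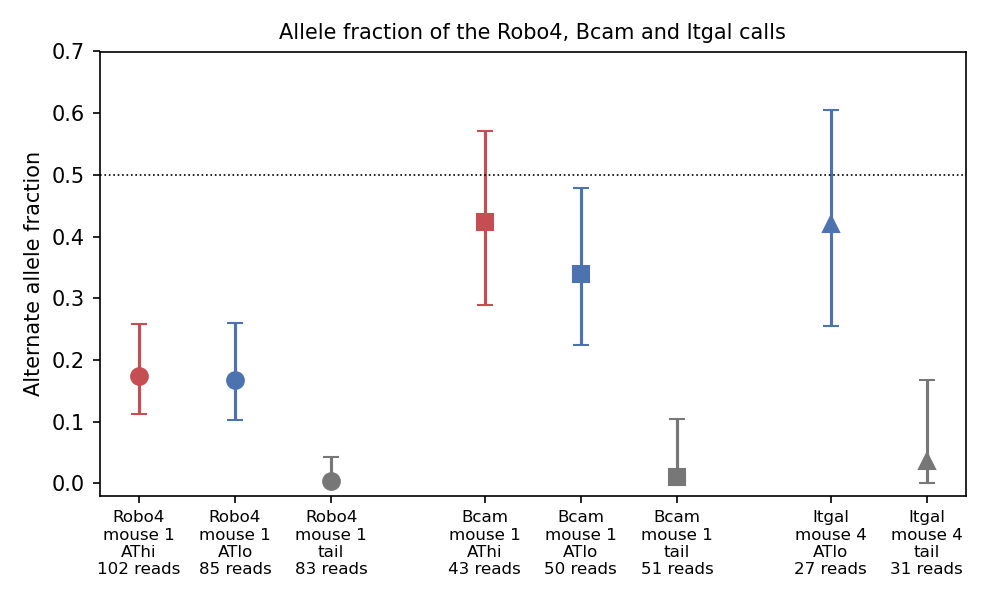
Alternate allele fraction (vertical axis) of the Robo4, Bcam and Itgal calls in AThi (red), ATlo (blue) and tail (grey) DNA, with the depth under each point. Bars are 95% intervals (Wilson for HSC, exact for tail), the dotted line marks 0.5, and Robo4 stands at 0.174 and 0.167 while the other 3 HSC points lie between 0.34 and 0.424.

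Tail DNA gave the germline level of each site, and the caller used it, so the gap between HSC and tail DNA is a description. Robo4 had a tail fraction of 0.004 at 83 reads, which rounds to 0 alternate reads. Bcam had 0.011 at 51 reads and Itgal 0.037 at 31 reads, which round to 1 alternate read each. As the fraction is the caller's estimate, the rounded counts do not show that an alternate read was seen. The exact 95% upper bounds of the tail allele fraction, built on these rounded counts, are 0.0435 for Robo4, 0.104 for Bcam and 0.167 for Itgal. They are not shares of cells. By tail fraction Itgal ranked 10 of 44 entries, in a list that ran from 0 to 0.062 (median 0.0155). Calls made in both fractions enter that list once per fraction, for Robo4 and Bcam with the same tail value. HSC minus tail fractions were 0.17 and 0.163 for Robo4, 0.413 and 0.329 for Bcam, and 0.383 for Itgal.

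The study asked whether the fractions hold different clones, which for Robo4 and Bcam can be put as a difference in allele fraction between AThi and ATlo cells of mouse 1. Robo4 differed by 0.007 (AThi minus ATlo, 95% Newcombe interval -0.105 to 0.114), with a Fisher's exact p of 0.848 (adjusted p = 1). Bcam differed by 0.084 (-0.110 to 0.272), with a Fisher's exact p of 0.521 (adjusted p = 0.974). Neither passed the two-sided test after Benjamini-Hochberg adjustment over all 13 shared calls with values, of which 0% passed. That share covers shared calls only. The authors' deposited table also names 10 calls in AThi alone and 8 in ATlo alone. These have no value in the other fraction and could not enter the test, so it does not settle whether the fractions hold different clones. Without adjustment, p was under 0.05 for 3 of the 13 shared calls in Fisher's exact test and for 2 in the chi-squared test. Robo4 and Bcam were not among these.

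A miss of the threshold does not show that the fractions are alike. As shares of heterozygous cells, the interval of the Robo4 difference reaches from -20.9 to 22.7 percentage points, and that of Bcam from -21.9 to 54.3 points. The range for Bcam is wide because 43 and 50 reads stand behind it. Each test compares 2 libraries of a single mouse and has no replicate behind it. Itgal could not be compared, as it had a row in ATlo alone.

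**Figure D2:**
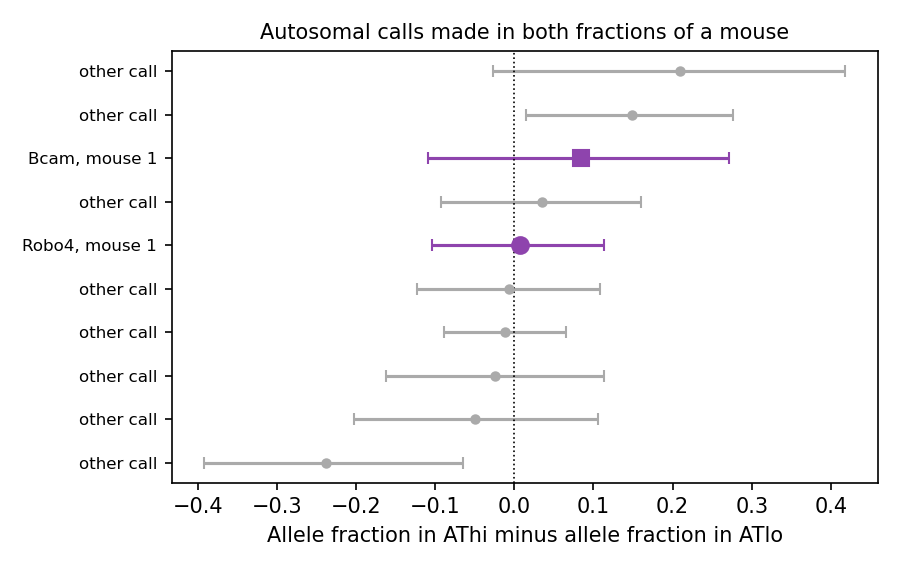
Difference in allele fraction, AThi minus ATlo (horizontal axis), of the 10 autosomal calls made in both fractions of a mouse, with 95% Newcombe intervals; Robo4 and Bcam are purple and the others grey. Robo4 lies at 0.007 and Bcam at 0.084, and the intervals of both include 0.

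The members were then set against 0.5, the level of a heterozygous site in every cell. Robo4 was below 0.5 in both fractions, by two-sided exact binomial tests adjusted over all 37 autosomal entries (adjusted p = 2.78e-10 in AThi and 1.80e-09 in ATlo). Bcam did not pass in AThi (adjusted p = 0.533) or in ATlo (adjusted p = 0.0755), and Itgal did not in ATlo (adjusted p = 0.606, exact binomial test). A miss here does not show a fraction of 0.5. Depth was 43 and 50 reads at Bcam and 27 at Itgal, against 102 and 85 at Robo4. The unadjusted exact p of Bcam in ATlo was 0.0328, and its Wilson interval ended at 0.478, just under 0.5. So 2 of the 5 entries, both of Robo4, were called below 0.5, against 35.1% of all autosomal entries, which is a share near the background. These 2 entries are the same call in the same mouse. Calls made in both fractions also enter the 37 entries once per fraction, so entries are not independent.

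Robo4 held the lowest values of its class. Of 20 autosomal entries of calls made in both fractions, its values of 0.174 and 0.167 were below all others, and the remaining 18 lay between 0.306 and 0.586 (median 0.477). Of these 20 entries 4 were called below 0.5, 2 of them in Robo4. Of the 17 autosomal entries called in a single fraction, 9 were called below 0.5, and the fractions of all 17 ran from 0.079 to 0.42 (median 0.26). Itgal, at 0.42, was the highest of those 17. Since its place in this order was known when the gene was chosen, no test is given for it.

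**Figure D3:**
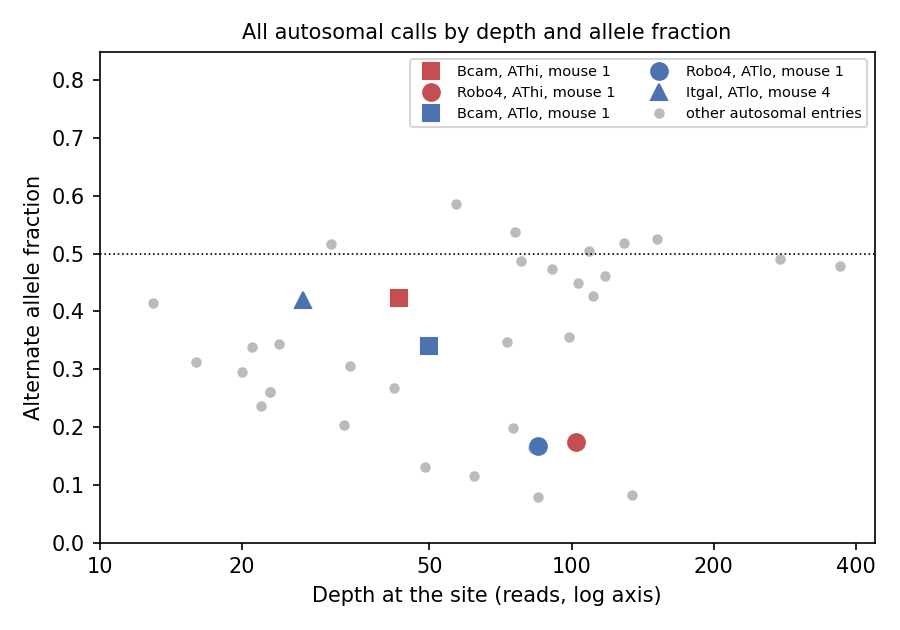
Allele fraction (vertical axis) against depth at the site (horizontal log axis, reads) of the 37 autosomal entries; members are coloured by fraction (AThi red, ATlo blue), other entries are grey, and the dotted line marks 0.5. Robo4 lies low at 85 and 102 reads, while Bcam and Itgal lie nearer 0.5 at 27 to 50 reads. Entries at 27 reads or fewer all lie at 0.237 or above, and whether lower fractions could be called at such depths was not tested.

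Within mouse 1, Robo4 and Bcam were compared in the same library. In AThi cells Robo4 was lower than Bcam by 0.25 in allele fraction (Robo4 minus Bcam -0.25, Newcombe interval -0.410 to -0.0901; two-sided Fisher's exact test, adjusted p = 0.0117 over all 73 pairs of autosomal calls within a library). With all read counts halved that adjusted p was 0.153, and with Holm's adjustment 0.175. In ATlo cells the difference was -0.173 (interval -0.326 to -0.0244) and did not pass after adjustment (Fisher's exact test, adjusted p = 0.0889). Over the table, 32.9% of pairs differed, so a difference of this kind was common. The ratio of the Robo4 to the Bcam fraction was 0.41 in AThi and 0.491 in ATlo.

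Set against the rest of mouse 1, Robo4 differed from 3 of 5 autosomal calls in AThi cells (Bcam, Rapgef3 and Zmynd11) and from 2 of 3 in ATlo cells (Rapgef3 and Zmynd11). The values of Rapgef3, a cAMP-activated exchange factor, were 0.505 and 0.356. Those of Zmynd11, a histone reader, were 0.461 and 0.426. In AThi cells Robo4 lay close to Capza1 (0.163, an actin-capping subunit) and Tmem67 (0.131, a ciliary protein), named here after their values were seen. Both of these have no row in ATlo cells, while Robo4, at a like fraction, was called in both. Its difference from Capza1 was 0.011 (interval -0.101 to 0.118) and from Tmem67 0.043 (-0.0933 to 0.152).

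Bcam differed in AThi cells from 3 of 5 calls, Robo4, Capza1 and Tmem67, and in ATlo cells from 0 of 3. By the summed absolute difference in allele fraction over both libraries, Rapgef3 was most like Bcam (0.097) and Zmynd11 next (0.123), among 3 candidates. For Robo4 the most alike was Bcam at 0.423, so no shared call of mouse 1 came near it. Itgal differed from 1 of 5 calls of its library, Kif15 (0.115, a kinesin). The calls most like Itgal there were Cyp2j6, a cytochrome P450, at 0.474 and an insertion in Togaram1, a microtubule regulator of cilia, at 0.338.

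Shares of cells may be added to ask whether the Robo4 and Bcam clones must overlap. As heterozygous sites they sum to 119.6% of AThi cells (interval 89.9 to 153.7%) and 101.4% of ATlo cells (74.9 to 134.8%). A sum above 100% would need cells that carry both, but both intervals include 100%, so overlap was not settled at this depth.

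The call quality is a score of the caller with an unstated scale. Robo4 had 34.8 in AThi and 24.7 in ATlo, Bcam 52.3 and 40.7, and Itgal 20.6, in a list that ran from 6.5 to 649.3 (median 43.9). Robo4 and Itgal thus lay below the list's median, and Bcam lay on either side of it. Within their libraries Robo4 ranked 6 of 8 in AThi and 6 of 6 in ATlo, Bcam 5 of 8 and 5 of 6, and Itgal 5 of 7. Depth at Bcam was the lowest of the 8 entries of AThi and of the 6 of ATlo. Against the planned coverage, HSC depth was 68% and 56.7% at Robo4, 28.7% and 33.3% at Bcam, and 18% at Itgal. Tail depth at the same sites was 277%, 170% and 103% of its own plan. The Bcam and Itgal sites are intronic, and whether the exome capture targeted them was not examined.

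By kind of mutation, Robo4 and Bcam both fell in the C>T class when strands are folded together, which held 12 of 31 calls with values (38.7%). Itgal was 1 of 2 deletions. Intronic calls, such as those of Bcam and Itgal, were 15 of 31 (48.4%), and nonsynonymous calls, such as that of Robo4, were 9 of 31 (29.0%). The members' kinds are thus the common ones of the list, except for the deletion.

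Other genes of the same pathways were searched by name. Calls were rare in all genes: the authors' deposited table names 31, or 0.142% of the 21900 protein-coding genes of RefSeq's annotation of GRCm38.p6. Of 14 genes of Slit and Robo signalling, including Slit2, a ligand of roundabout receptors, 1 had a call, Robo4. Of 24 integrin genes, ligands and regulators, including Itgb2, the partner chain of Itgal, and Icam1, its ligand, 1 had a call, Itgal. Of 21 laminin and adhesion receptor genes, including Lama5, whose product Bcam binds, 1 had a call, Bcam. Of 27 receptors and signals of the HSC niche, such as Cxcr4 and Kit, 0 had a call. Over the 86 genes together, 0 besides the members were called. At the share of all genes with a call, lists of this size would rarely hold any, and the members were put on the lists with their calls known, so nothing about these pathways is read from the counts. Which of the genes were covered by reads was not analysed here.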

How the data were processed

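Per the file headers, calls in HSC DNA were made with tail DNA of the same mouse as the normal sample, and the deposited list is named for Mutect2. The submitters' processing notes name Bowtie2. Versions, filters and the build are stated in no source used here. Exome capture and sequencing were done by either of 2 services, per the labels' protocols, and which mouse went to which is not given, so that batch was not examined. The deposited lists hold depth as counts of reads, the allele fraction as estimated by the caller, and a quality score, per the file headers. The 5 entries of the 3 genes were equal in the list of all calls and in that of the mouse. Some calls are not reported here by name; those with values enter every test.

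Groups and mice were taken from the sample titles. The number of alternate reads was taken as the rounded product of depth and fraction. Tests were two-sided Fisher's exact tests and exact binomial tests on these reads, with a threshold of 0.05. Benjamini-Hochberg adjustment was made separately over all shared calls, all autosomal entries and all autosomal pairs within a library. The tests were also run on simulated independent reads at the real depths, which cannot show the effect of several reads from 1 molecule. Intervals are at 95%. The members, gene lists and tests were chosen with earlier results of these data known. The rule named the members and the 2 calls most like each; Capza1, Tmem67, Kif15 and others that entered pairs were named after their values were seen. Alternatives were other roundings, halved reads, a null of 0.45, a chi-squared test, Holm's or within-mouse adjustment, a depth of at least 20 and each mouse left out. Statistics used SciPy 1.17.1 and NumPy 2.4.6 under Python 3.11.15, and figures Matplotlib 3.10.9.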

Additional observations from a re-analysis of the deposited data

How the results depend on the processing

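For Robo4 and Bcam between fractions and for all members against 0.5, direction and side of the threshold were the same in every alternative where they had a row. Leaving out another mouse, Holm's or within-mouse adjustment and a depth of at least 20 left the members' own reads unchanged. Only the adjustment could move there, so these settings are no check on the members' values. With its own mouse left out, a member had no row. In AThi cells, Robo4 against Bcam lost the call with halved reads (Fisher's exact test, adjusted p = 0.153) and Holm's adjustment (0.175). Its adjusted p ran from 0.00907 to 0.0128 with another mouse left out. Shared calls differing between fractions numbered 1, not 0, when adjusted within each mouse, and it was neither Robo4 nor Bcam. The count was 0 with any mouse left out. Autosomal entries off 0.5 numbered 8, not 13, with halved reads and 9 with Holm's adjustment. With alternate reads rounded up they numbered 11, and rounded down 14. Against the null of 0.45 the count was 9. With a mouse left out, the count off 0.5 ran from 7 (without mouse 1) to 12. Differing pairs numbered 15, not 24, with halved reads and with Holm's adjustment, and ran from 13 (without mouse 1) to 24. Halved reads and left-out mice bring fewer reads or entries into these counts by construction, and Holm's adjustment is stricter by construction. No paired analysis was possible because each call of these genes lies in 1 mouse. Depths of 27 to 102 reads limit what can be told apart, and 5 entries in 2 mice carry no replicate error.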
